A study of Mus musculus with 4 samples.

Results

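The 9 genes described here carry MHC class I antigen presentation: B2m, H2-K1, H2-D1, Psmb8, Psmb9, Tap1, Tap2, Tapbp and Nlrc5. They were chosen by symbol, with earlier results of these data known. All 9 were found among the 31054 features of each of 4 single-cell RNA matrices. Every nucleated cell can show fragments of its own proteins on class I molecules, so that cytotoxic T cells can find cells that make viral or altered proteins. The proteasome cuts the proteins, a transporter in the membrane of the endoplasmic reticulum carries the peptides in, a loading complex fits them to a heavy chain paired with beta-2 microglobulin, and the filled molecule moves to the cell surface. Interferons raise many of these genes through STAT and IRF factors, and in the intestine the pathway is known to respond to interferon from immune cells during infection and inflammation.

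The cells were intestinal epithelial cells isolated by flow cytometry from Bmi1-GFP mice, a reporter strain in which GFP follows the Bmi1 locus, and all 4 groups carry that reporter. There were 4 groups of 1 library each: fetal gut at E12.5 and at E17.5 (days of embryonic development), adult gut, and irradiated gut that is also labelled adult. The labels do not give the irradiation dose, the time after it, the number, sex or strain background of the animals, or the sorting gates. Because each group is 1 library, no difference between groups can be set against a spread between animals, no test between groups was made, and every interval below is a 95% interval for counting error only.

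After filtering, 3031 to 4409 cells per library were kept, and they held 29808886 to 82154356 UMIs (unique molecular identifiers, 1 per captured RNA molecule). The median depth per kept cell was 18082, 11003, 3607 and 8554 UMIs, in the order E12.5, E17.5, adult, irradiated, which is kept below wherever 4 values are given. Pairs of libraries shared 0 to 6 cell barcodes. Cells were grouped into classes from marker genes, and clusters of non-epithelial or pancreatic name were left out of "all epithelial cells", which numbered 4050, 3476, 3597 and 3031. At E12.5 an unnamed cluster of 53 cells led by Acta2, Wnt6, Ptn and Krt5 stayed among them. The label of intestinal epithelium did not cover the whole E17.5 library, where 535 pancreatic acinar-like, 138 islet-like, 144 smooth muscle-like and 94 mesenchymal-like cells were found. Levels are UMIs per 1000000 UMIs (CPM), summed over cells, so that fewer cells with a transcript and less of it per cell cannot be told apart in them. The kit reads the 3′ end of each transcript, so a UMI stands for a molecule whatever its length, and levels were not divided by length.

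Of the 9 genes, 7 lie on chromosome 17 in the mouse MHC, between position 33915899 (Tapbp) and position 35267499 (H2-D1) of GRCm38. B2m lies on chromosome 2, from 122147686 to 122153083 on the + strand, and Nlrc5 on chromosome 8, from 94434356 to 94527272 on the + strand. Tap1 and Psmb9 are neighbours that point away from each other, and Psmb8 and Tap2 follow Tap1 on the same strand. Promoters were taken from RefSeq (GRCm38.p6), which had an entry for 7 of the 9 genes. The classical heavy chain promoters and that of B2m are shown because the levels of these 3 genes are compared throughout, and the stretch between Psmb9 and Tap1 because the starts of both genes lie at its ends. Capitals mark 4 motifs searched on both strands: AANNGAAA (core of the IRF element), GGATTCC (core of the kappa B site of the class I enhancer), TGACG (CRE core) and CCAAT. No matches overlapped in the stretches shown.

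H2-K1 promoter, chr17:34000353-34000462, - strand: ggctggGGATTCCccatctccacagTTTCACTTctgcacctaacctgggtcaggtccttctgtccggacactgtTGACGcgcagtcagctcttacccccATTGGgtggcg
H2-D1 promoter, chr17:35262919-35263051, + strand: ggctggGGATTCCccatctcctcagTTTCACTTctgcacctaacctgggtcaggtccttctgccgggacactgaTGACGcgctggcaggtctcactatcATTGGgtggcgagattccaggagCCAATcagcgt
B2m promoter, chr2:122147544-122147644, + strand: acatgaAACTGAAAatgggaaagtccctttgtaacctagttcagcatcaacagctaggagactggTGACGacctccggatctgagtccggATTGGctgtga
Psmb9 to Tap1, chr17:34187331-34187555, + strand: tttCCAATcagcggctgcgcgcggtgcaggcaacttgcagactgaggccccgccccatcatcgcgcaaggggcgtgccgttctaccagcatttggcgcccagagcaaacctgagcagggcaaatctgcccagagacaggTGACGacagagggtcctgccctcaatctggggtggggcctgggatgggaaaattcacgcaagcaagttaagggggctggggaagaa

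The H2-K1 and H2-D1 stretches matched at 99 of their first 110 positions and held the 4 motifs in the same order there. The H2-D1 stretch has a further CCAAT beyond them. H2-K1 has one too, outside its printed stretch, 6 to 2 bases before another RefSeq start of the gene. The kappa B core was found in 3.17% of the 32851 RefSeq windows of the 250 bases before a start, and among the 7 genes with an entry it was found in H2-K1 and H2-D1. The IRF core was found in B2m, H2-K1 and H2-D1, and in 21.3% of all windows. TGACG occurred in 17.8% of windows and CCAAT in 33.8%. A match describes letters, not a bound factor. The near identity of H2-K1 and H2-D1 extends to their transcripts, which also resemble the H2-Q genes, and the strain's haplotype is not in the labels, so the split of reads among these genes is uncertain.

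The level of these genes was first compared across the 2 embryonic ages and the adult, in all epithelial cells. B2m and the heavy chains were present at E12.5 and were higher at each later age, while the inducible proteasome subunits, the transporter and Nlrc5 went from at or near 0 at E12.5 to clear levels in the adult. B2m, the light chain shared by all class I molecules, stood at 39.1 CPM at E12.5 (interval 37.8 to 40.5), 128.8 at E17.5 (126.0 to 131.7) and 383.0 in the adult (376.1 to 390.1). The heavy chain gene H2-K1 stood at 34.9, 252.1 and 717 CPM, and H2-D1 at 37.9, 219.5 and 1023. None of the intervals of these 3 genes overlapped between ages. The ratio of CPM from E12.5 to E17.5 was 3.29 for B2m (3.16 to 3.43), 7.23 for H2-K1 (6.94 to 7.52) and 5.80 for H2-D1 (5.57 to 6.03).

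From E12.5 to E17.5 the inducible proteasome subunits had the largest log2 ratios of the measured members. Psmb8 encodes the subunit that replaces Psmb5 in the immunoproteasome, a form of the proteasome with altered cutting preference. It was at 6 UMIs in the whole E12.5 library (0.0730 CPM), at 15.1 CPM at E17.5 and at 162 CPM in the adult. Psmb9, which replaces Psmb6, went from 0.487 CPM to 20.7 and 87.2 CPM. The ratio of CPM from E12.5 to E17.5 was 207 for Psmb8, with an interval from 94.9 to 567 that the 6 UMIs set, and from E17.5 to the adult it was 10.7 (9.97 to 11.5).

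Tap1 and Tap2 encode the 2 chains of the peptide transporter, and Tapbp encodes tapasin, which bridges the transporter and the empty class I molecule. Tap1 stood at 0.962, 4.68 and 27.5 CPM in the E12.5, E17.5 and adult cells, and 19 of its 79 UMIs at E12.5 came from the 53-cell cluster led by Acta2. Tap2 stood at 0.0852, 3.43 and 19.0 CPM, the first of these from 7 UMIs. Tapbp stood at 3.74, 24.3 and 81.8 CPM. Nlrc5, the transactivator that acts on class I genes, had 0 UMIs at E12.5, where 3 UMIs would have given 0.0365 CPM. It had 1 UMI at E17.5 and 70 in the adult (2.35 CPM, 1.83 to 2.97). The adult value of 2.35 CPM was 64.3-fold the E12.5 level that 3 UMIs would give, without the counting error of either.

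**Figure D1:**
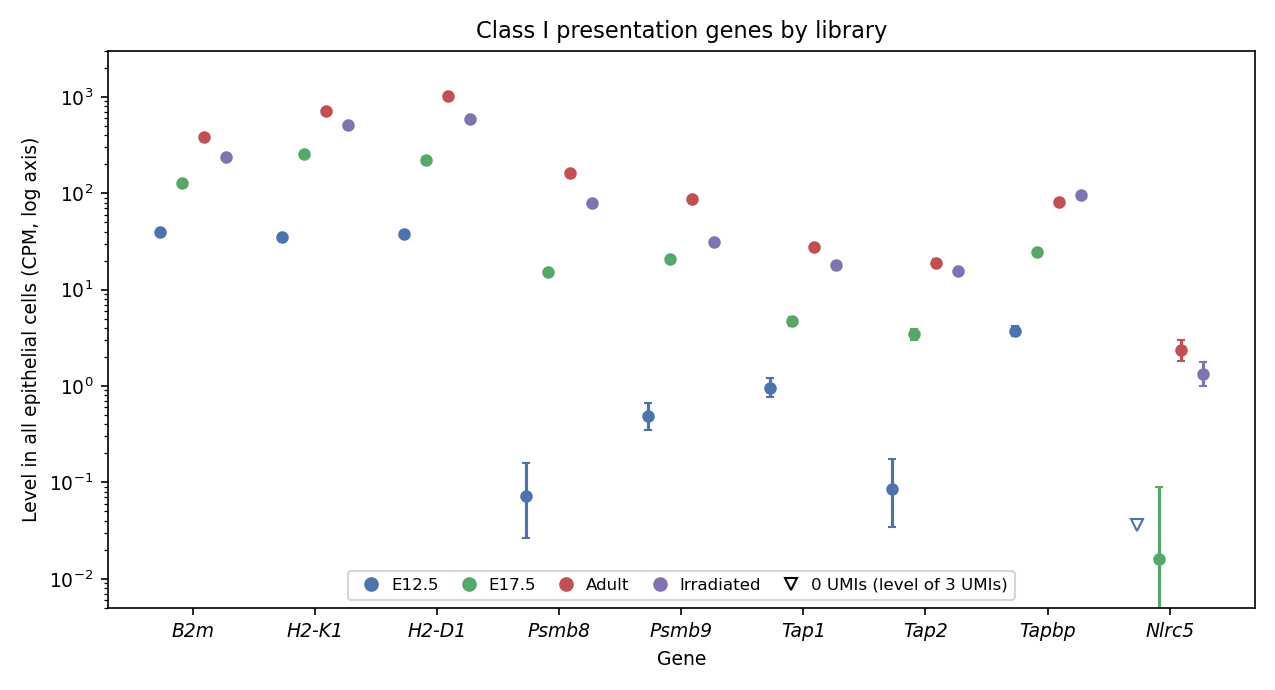
Level of each gene in all epithelial cells (CPM, log axis) in the 4 libraries. Points are single libraries, bars are exact Poisson 95% intervals for counting error, and the open triangle marks 0 UMIs at the level of 3 UMIs. Every gene is lowest at E12.5 and, apart from Tapbp, highest in the adult library.

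Genes were counted as different where the log2 of (CPM + 1) differed by 1 or more, which is 2-fold, provided that 1 of the 2 libraries held at least 10 UMIs. From E12.5 to E17.5, 8 of the 9 genes reached the minimum and all 8 were at least 2-fold higher, against 13.1% of all measured genes (14.5% were lower). Psmb8 and Tap2 reached the minimum only at E17.5, and the other 6 reached it at both ages. From E17.5 to the adult all 9 were at least 2-fold higher, against 12.5% of all genes (12.6% were lower), with Nlrc5 reaching the minimum only in the adult. The median log2 ratio of the measured members was 2.46 in the first step and 2.03 in the second, beside medians of -0.15 and -0.06 over all measured genes. From E12.5 to the adult the log2 ratios ran from 1.74 (Nlrc5) to 7.25 (Psmb8). All 9 genes were at least 2-fold higher, against 18.5% of all genes (23.5% were lower). Here Psmb8, Tap2 and Nlrc5 reached the minimum only in the adult, and the other 6 reached it at both ages.

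The libraries differed in more than age. Leukocyte transcripts (7 genes, among them Ptprc, Cd3e and Tyrobp) summed to 0.536, 3.06, 39.7 and 18.9 CPM. In the adult, 1048 of these 1183 UMIs were Ptprc, and 983 of them came from tuft-like cells. With every cell that held a leukocyte UMI left out, 9 of 9 members were still at least 2-fold higher in the adult than at E17.5. Tuft-like cells formed a class in the adult and none at E17.5. With them left out, in a setting chosen after seeing the data, 6 of 9 members were at least 2-fold higher in the adult than at E17.5. The log2 ratio of B2m was then 0.81, that of H2-K1 0.83 and that of Nlrc5 0.75, all below 2-fold, and that of H2-D1 was 1.06. Over all genes the share higher was 12.5% with every cell kept, and it was not computed for these settings. The median share of mitochondrial UMIs over deposited barcodes was 4.68% and 3.69% in the embryonic libraries and 13.6% in both later ones. The part of mitochondrial content and of tissue preparation in these differences was not tested.

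To compare shares of cells, a random draw of 2000 UMIs was taken from every cell, and cells with fewer (571, 151, 646 and 483 of them) were left out. A B2m UMI was found in 7.76% of E12.5 cells (exact interval 6.89 to 8.70), and in 16.7%, 42.3% and 34.8% of the cells of the later libraries. Without thinning the shares were 47.6%, 56.5%, 57.5% and 70.3%. For H2-D1 the thinned shares were 7.16%, 39.4%, 69.4% and 64.7%. Psmb8 was found in 0 of 3479 thinned E12.5 cells, which allows up to 0.106% of cells to hold a UMI at that depth, while 6 of 4050 cells (0.148%) held one before thinning. In the later libraries it was found in 3.31%, 20.2% and 16.6% of thinned cells. Free RNA in droplets gives a low share in cells that lack a transcript. As a measure of it, H2-D1 was found in 1 of 139 thinned smooth muscle-like cells at E17.5 (0.719%, interval 0.0182 to 3.94). The median depth of smooth muscle-like cells was 6252 UMIs, beside 11624 in the epithelial cells. This value covers H2-D1 in the E17.5 library only, and free RNA in the other libraries was not measured.

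Counted per cell, the number of these genes with a UMI was also lowest at E12.5 and highest in the adult. A thinned cell held a mean of 0.229, 1.10, 2.41 and 2.15 of the 9. At E12.5, 78.5% of cells had none and the most in any cell was 2. In the adult, 7.46% had none and 43.8% had 3 or more. Tuft-like cells held a mean of 3.67 in the adult and 3.68 in the irradiated library, and 84.1% and 87.3% of them had 3 or more. The 50 adult enterocyte-like cells deep enough for thinning held a mean of 3.66, and 86.0% of them had 3 or more.

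**Figure D2:**
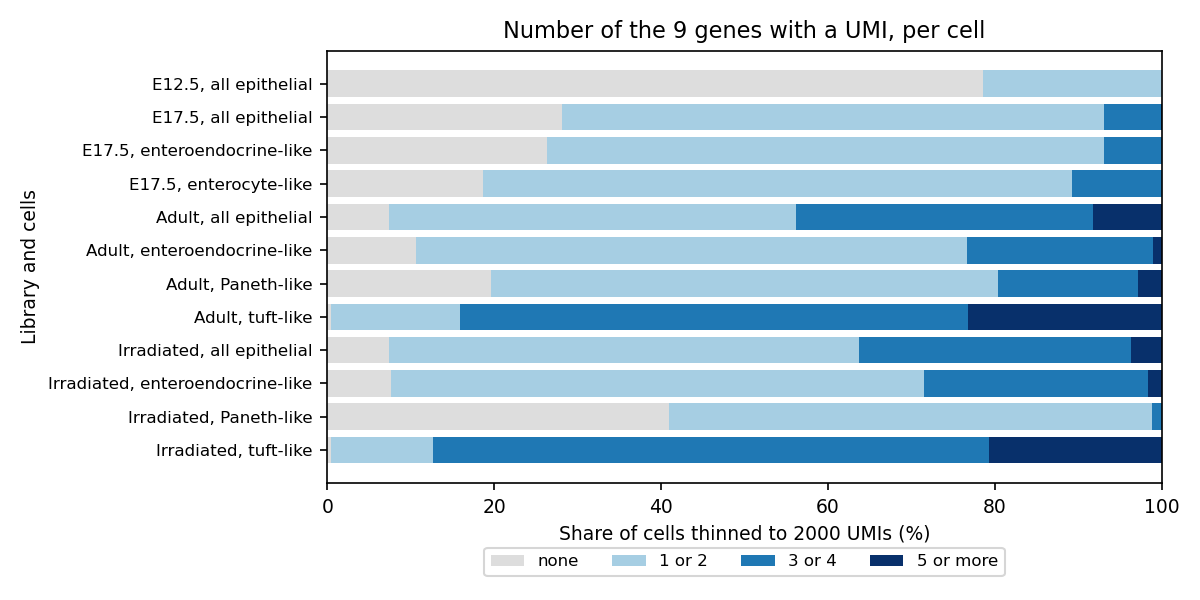
Share of cells, each thinned to 2000 UMIs, in which none, 1 or 2, 3 or 4, or 5 or more of the 9 genes had a UMI, by library and cells. Most E12.5 cells (78.5%) have none, while in tuft-like cells of both adult libraries fewer than 0.5% have none.

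The inducible subunits were then set against the constitutive ones they replace, as a share of the UMIs of each pair. Psmb8 made up 0.0163% of Psmb8 plus Psmb5 UMIs at E12.5 (exact interval 0.00597 to 0.0354), 3.81% of them at E17.5 (3.57 to 4.05), and after birth 44.7% of them in adult cells (43.8 to 45.7) against 29.1% in irradiated cells (28.2 to 29.96). Psmb9 made up 0.103%, 4.96%, 26.7% and 12.6% of Psmb9 plus Psmb6. Psmb10, the inducible subunit that replaces Psmb7 and whose gene lies outside the MHC, made up 8.74%, 41.0%, 70.2% and 60.8%. The constitutive subunits were lower at each later age: Psmb5 stood at 448.9, 382.8, 200.2 and 195.0 CPM in the 4 libraries, and Psmb6 at 473.8, 395.7, 239.6 and 216.8 CPM.

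**Figure D3:**
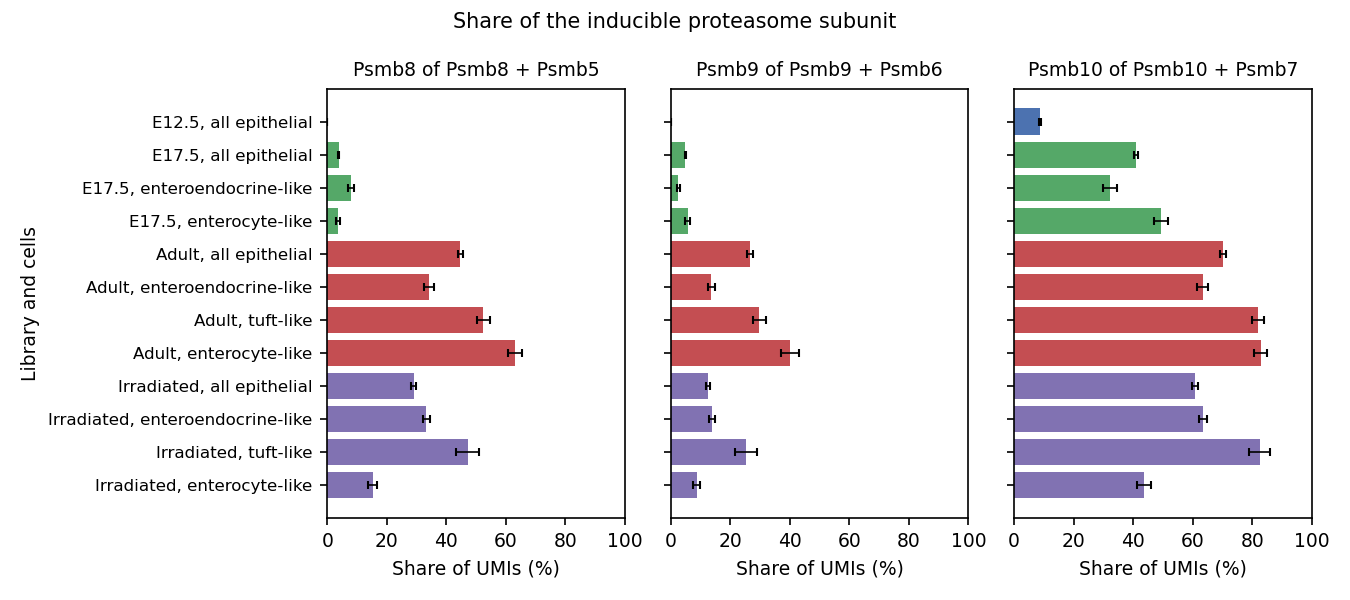
UMIs of the inducible subunit as a share of the pair (percent), by library and cells, with exact binomial 95% intervals for counting error. Psmb8 goes from 0.0163% at E12.5 to 44.7% in the adult, and Psmb10 has the higher share of the 3 inducible subunits in every bar.

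The other genes of the pathway did not all follow. Of 8 proteasome partners, Psmb10 alone was at least 2-fold higher at E17.5 than at E12.5 (log2 ratio 2.37), beside 13.1% of all genes. From E12.5 to the adult Psmb10 was again the 1 gene higher, and 3 were at least 2-fold lower: Pomp (-1.03), a helper of proteasome assembly, Psmb5 (-1.16) and Psmb7 (-1.28). Over this span 18.5% of all genes were higher and 23.5% lower. The activator subunits Psme1 and Psme2 had log2 ratios of 0.45 and 0.44 from E12.5 to the adult. The folding helpers of the loading complex, Calr, Canx and Pdia3, had log2 ratios of -0.14, -0.24 and -0.41 over the same span, whereas Erap1, which trims peptides in the endoplasmic reticulum, and Tapbpl, a tapasin relative, had 2.83 and 2.37. Of 8 loading and trimming genes, 3 were at least 2-fold higher and none lower from E12.5 to the adult, beside the same 18.5% and 23.5% of all genes.

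Of the other class I and class I-like heavy chains, 16 were found and 14 were measured between E12.5 and the adult. Of these 14, 8 were at least 2-fold higher, beside 18.5% of all genes, and none lower, beside 23.5%. H2-T23, which encodes the nonclassical chain Qa-1, stood at 1.22 CPM at E12.5 and 98.3 in the adult. H2-T3, the thymus leukaemia antigen made by intestinal epithelium, stood at 0.110, 42.5 and 26.1 CPM over the 3 ages. Fcgrt, the neonatal Fc receptor that carries maternal antibody across the gut wall, was highest at E17.5 (4.69, 103 and 15.7 CPM), and so was H2-Q10 (3.57, 54.5 and 8.02 CPM).

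Of 16 regulators, 7 were at least 2-fold higher and 1 lower from E12.5 to the adult, beside 18.5% and 23.5% of all genes. Among those higher were Irf9, with a log2 ratio of 1.46, Irf2, with 3.36, and also Irf1, Stat3 and Relb. Among the DNA-binding partners with which Nlrc5 acts, Rfx5 had 0.39, Rfxap -0.89, Rfxank 0.33 and Nfyc -1.55. The ratios of Nfya and Nfyb are not given here. Of 9 interferon receptor and kinase genes, 3 were at least 2-fold higher (Ifnar2, Il10rb and Jak2), beside the same 18.5%. Of 17 interferon-induced genes, 11 were at least 2-fold higher and none lower, beside 18.5% and 23.5% of all genes. Among the higher ones were Irf7 (0.292 and 116 CPM) and Isg15 (0.0852 and 90.2 CPM). Both stood higher in adult tuft-like cells, a class not found at E12.5. Isg15 was at 3547 CPM in a cluster of 36 of these cells and at 384 in the others, and Irf7 at 960.7 and 516.5. The count for this list without tuft-like cells was not computed.

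Within the adult library the cell classes were compared next. Tuft-like cells, the chemosensory cells that answer parasites and protists, had the highest level of 7 of the 9 genes among 5 classes, and enterocyte-like cells the highest of Psmb8 and Psmb9. The intervals of tuft-like and enterocyte-like cells overlapped for Tap1 and Tap2. Paneth-like cells, which secrete antimicrobial peptides, had the lowest value for each of the 9. Their interval overlapped that of enteroendocrine-like cells for Psmb9 and Tap1 and that of stem-like cells for Tap2. Nlrc5 had 1 UMI in them and 1 in enterocyte-like cells. The split of Paneth-like from stem-like cells depends on the clustering resolution. At a resolution of 0.5 the adult library had a Paneth-like cluster of 344 cells and no stem-like class. H2-D1 stood at 4103 CPM in tuft-like cells, 734 in enterocyte-like, 563 in enteroendocrine-like (hormone-secreting), 371 in crypt base columnar stem-like and 124 in Paneth-like cells. B2m stood at 1240, 677, 153, 302 and 108 CPM in the same order, so that the stem-like cells lay above the enteroendocrine-like ones for B2m and below them for H2-D1. The order for Psmb8 was different again, with 478 CPM in enterocyte-like, 244 in stem-like, 232 in tuft-like, 80.9 in enteroendocrine-like and 46.2 in Paneth-like cells. The intervals of Psmb8 in stem-like and tuft-like cells overlapped. In Paneth-like cells 4 of 8 measured genes (H2-K1, H2-D1, Tap2 and Tapbp) were at least 2-fold lower than in enteroendocrine-like cells, where 71.0% of all measured genes were.

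Against enteroendocrine-like cells, the largest adult class, 8 of the 9 genes were at least 2-fold higher in tuft-like cells, beside 10.3% of all measured genes, and Tapbp was 0.74 higher on the log2 scale. The same count was 8 of 9 in the irradiated library, beside 9.86%. In each library Nlrc5 reached 10 UMIs in only 1 of these 2 classes. Of the other 8 genes, 7 were at least 2-fold higher in each library. In enterocyte-like cells of the adult 5 of 8 were at least 2-fold higher than in enteroendocrine-like cells, beside 11.8% of genes: B2m, Psmb8, Psmb9, Tap1 and Tap2. In the irradiated library Tap1 alone was, 1 of 9, beside 15.3%. Nlrc5 stood at 11.3 CPM (52 UMIs) in adult tuft-like cells and at 0.626 CPM (8 UMIs) in enteroendocrine-like cells. Tuft-like cells were 27.1% of adult epithelial cells and held 15.5% of their UMIs, and they held 62.1% of the H2-D1 UMIs, 50.1% of B2m, 47.0% of H2-K1, 39.7% of Tap1 and 74.3% of Nlrc5. They held 22.1% of Psmb8 and 19.0% of Psmb9. Stem-like cells, at 21.8% of all UMIs, held 32.8% of Psmb8 and 44.3% of Psmb9.

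Ptprc, which encodes the leukocyte antigen CD45 and is known in a subset of tuft cells, stood at 213 CPM in adult tuft-like cells, and 52.9% of these cells held a UMI of the leukocyte list. In them 4 of the 7 leukocyte genes were at 0 and 3 UMIs in all came from genes other than Ptprc. B2m and H2-D1 were among the variable genes used for clustering in both adult libraries, so these 2 genes had a part in forming the classes, and the other 7 did not in these libraries. The classes also differed in depth, with a median of 47132 UMIs in stem-like, 31140 in enterocyte-like, 4113 in tuft-like, 3191 in enteroendocrine-like and 2944 in Paneth-like cells.

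**Figure D4:**
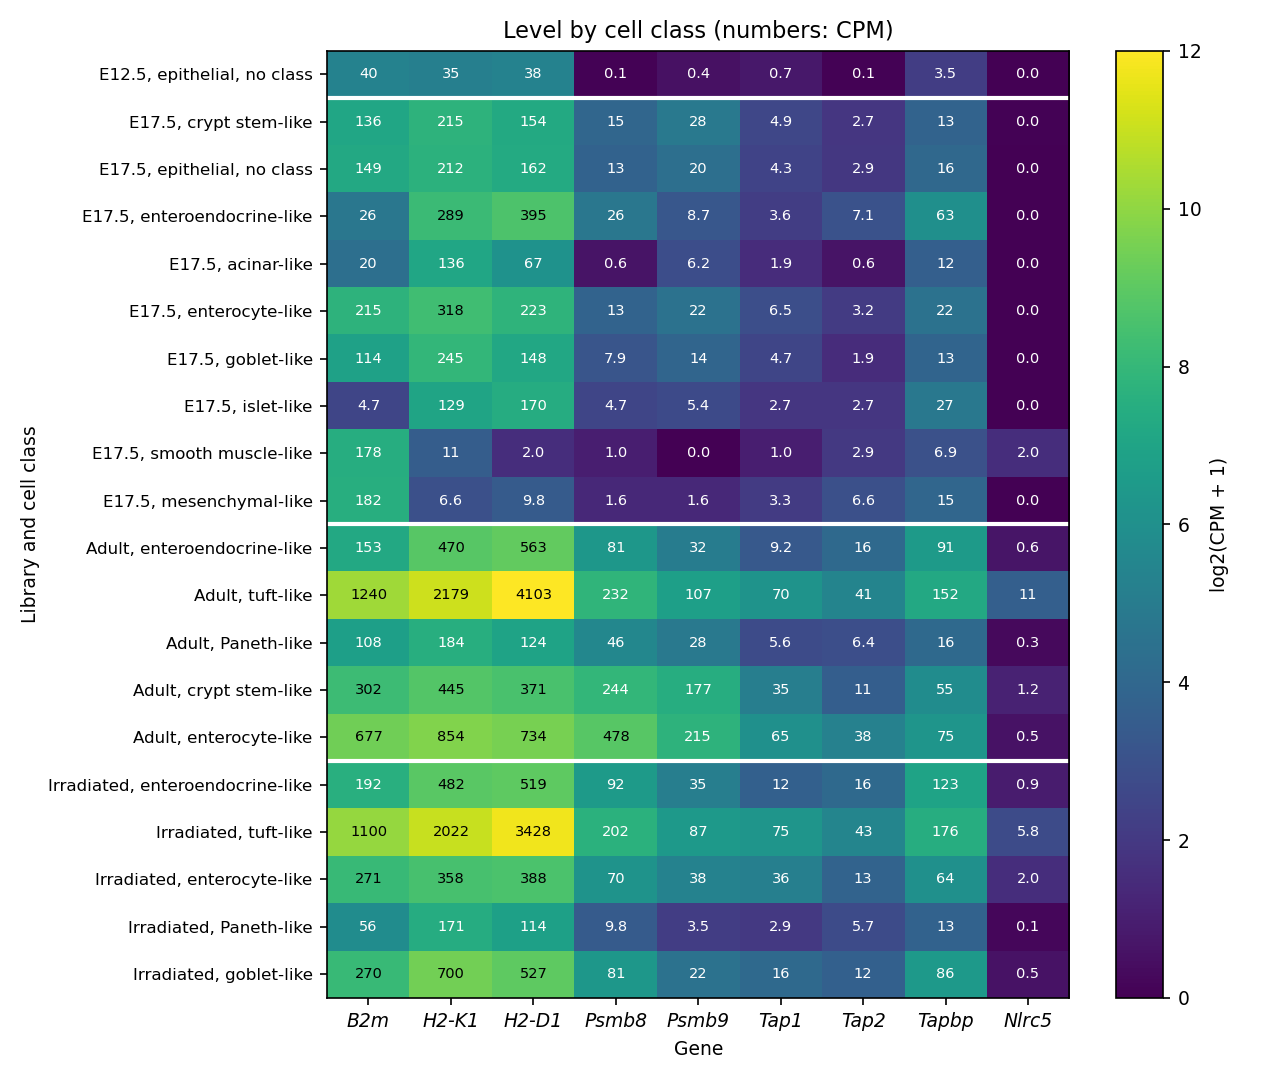
Level of each gene (numbers in the cells are CPM, colour is log2(CPM + 1)) in every class of at least 50 cells, by library. The tuft-like rows are the brightest for B2m, H2-K1 and H2-D1, and in the E17.5 mesenchymal-like and smooth muscle-like rows B2m is high while H2-K1 and H2-D1 are low.

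Levels also varied among the clusters within a class. Of the 4 adult tuft-like clusters, 1 of 36 cells was led by Isg15 and held more of the interferon-induced genes, with Isg15 at 3547 CPM against 384 in the other 938 tuft-like cells and Mx1 at 442 against 4.09. In that cluster Nlrc5 stood at 63.1 CPM (13 UMIs) against 8.85 in the others, Tap1 at 247.5 against 62.2, Psmb8 at 490 against 220, and Tap2 at 82.5 against 39.5. The log2 ratios were 2.70 for Nlrc5 (1.71 to 3.60), 1.98 for Tap1 (1.52 to 2.41), 1.15 for Psmb8 and 1.04 for Tap2. B2m, H2-K1 and H2-D1 differed by no more than 0.26 in the same comparison. This cluster was singled out after its values were seen. A further cluster of 139 cells with a median of 2214 UMIs had lower levels, with H2-D1 at 950 CPM against 3731 to 5519 in the other 3.

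At E17.5 the level of B2m was not tied to that of the heavy chains. Enteroendocrine-like cells had 26.3 CPM of B2m (199 UMIs, interval 22.8 to 30.2) but 289 of H2-K1 and 395 of H2-D1, while enterocyte-like cells had 215 of B2m, 318 of H2-K1 and 223 of H2-D1. Islet-like cells had 4.71 CPM of B2m (7 UMIs) beside 129 of H2-K1 and 170 of H2-D1. Mesenchymal-like and smooth muscle-like cells showed the reverse, with 182 and 178 CPM of B2m, 6.55 and 10.8 of H2-K1, and 9.83 and 1.96 of H2-D1, each heavy chain value resting on 2 to 11 UMIs. Enterocyte-like cells had 2 of 8 genes at least 2-fold higher than enteroendocrine-like cells (B2m and Psmb9, beside 14.4% of genes) and 1 lower (Tapbp, beside 32.5%). Over the 20 combinations of library and class with at least 50 cells, Pearson's correlation of log2(CPM + 10) was 0.974 between H2-K1 and H2-D1 and 0.560 between B2m and H2-K1. These points share libraries and differ in depth, so the correlations only describe them.

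Within enteroendocrine-like cells, present at both E17.5 and adult ages, 5 of 8 measured genes were at least 2-fold higher in the adult, beside 11.2% of all genes. The E17.5 class left out a cluster of 380 cells led by Cck, Nts, Sct and Ghrl, first named enteroendocrine and then unnamed. The 9 genes summed to 1189 CPM in that cluster, 818 in the E17.5 class and 1416 in the adult class. The ratios given here are those of the class without it. B2m had the largest log2 ratio, 2.50 (152.9 against 26.3 CPM). Psmb9 (1.77), Psmb8 (1.60), Tap1 (1.16) and Tap2 (1.06) followed, and H2-K1 (0.70), Tapbp (0.53) and H2-D1 (0.51) were higher by less than 2-fold. In enterocyte-like cells all 8 measured genes were at least 2-fold higher in the adult than at E17.5, beside 10.8% of genes, with Psmb8 at 478 against 13.2 CPM. The enterocyte-like cells were 58 in the adult and 383 at E17.5, and the adult cluster was led by Reg1, Reg3b, Apoa4 and Fabp2. Goblet-like cells, the mucus makers, were found at E17.5 (171 cells) and in the irradiated library (82 cells). Of 8 measured genes, 7 were at least 2-fold higher in the irradiated ones, beside 10.8% of genes, from B2m (270 against 114 CPM) to Psmb8 (81.0 against 7.86 CPM), and Psmb9 was 0.60 higher on the log2 scale. The goblet-like groups differ in both age and irradiation, which cannot be told apart here.

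The irradiated library was compared with the adult one to ask how the pathway stood in epithelium after radiation. In all epithelial cells none of the 9 genes was at least 2-fold higher, beside 2.59% of genes, and Psmb8 and Psmb9 were at least 2-fold lower, beside 4.78%. B2m stood at 237 CPM against 383, H2-K1 at 513 against 717, and H2-D1 at 593 against 1023. Psmb8 stood at 80.0 against 162, and its log2 ratio was -1.01 (-1.07 to -0.94). Psmb9 stood at 31.3 against 87.2, with a log2 ratio of -1.45 (-1.55 to -1.35). Tapbp alone was higher, at 96.1 against 81.8 CPM (log2 ratio 0.23). The call for Psmb8 sat at the threshold: its log2 ratio was -0.94 with edgeR's TMM factors and -0.29 as a mean over single cells, which weighs shallow and deep cells alike. That mean also put Psmb9 below 2-fold, at -0.69.

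The makeup of the 2 libraries differed. Tuft-like cells were 27.1% of adult and 9.53% of irradiated epithelial cells, and held 15.5% and 4.01% of UMIs. With tuft-like cells, and the irradiated cluster that held enteroendocrine and tuft markers together, left out (a setting chosen after seeing the data), the log2 ratio went from -0.79 to -0.13 for H2-D1, from -0.48 to -0.11 for H2-K1 and from -0.69 to -0.30 for B2m. For Psmb8 it was -1.06 and for Psmb9 -1.55. Adult stem-like cells were kept in this setting, and the irradiated library had no stem-like class. They held 21.8% of adult epithelial UMIs, 32.8% of those of Psmb8 and 44.3% of those of Psmb9. Ratios without them were not computed. Class II transcripts (Cd74, H2-Aa, H2-Ab1, H2-Eb1 and Ciita) summed to 137 CPM in the adult and 22.3 CPM in the irradiated epithelial cells. In the adult they were highest in enterocyte-like (368 CPM) and stem-like (348 CPM) cells. Their part in the result was not tested.

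The comparison was also made within the 4 classes found in both libraries. In enteroendocrine-like cells no gene was 2-fold higher or lower, beside 1.47% and 2.96% of genes, and the log2 ratios ran from -0.12 (H2-D1) to 0.44 (Tapbp). In tuft-like cells none was 2-fold higher or lower either, beside 4.58% and 3.17% of genes. There the ratios were -0.17 for B2m, -0.11 for H2-K1, -0.26 for H2-D1, -0.20 for Psmb8 and 0.21 for Tapbp, and -0.85 for Nlrc5 with an interval from -1.83 to 0.07. In enterocyte-like cells 5 of the 9 were at least 2-fold lower, beside 11.0% of genes. Psmb8 stood at 69.7 CPM there against 478 in the adult (log2 ratio -2.76, -2.94 to -2.59), Psmb9 at 38.4 against 215, B2m at 271 against 677 and H2-K1 at 358 against 854.

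These enterocyte-like cells were not alike in the 2 libraries. The irradiated cluster (97 cells) was led by Ccnd1, Prap1, Apoa4 and Reg3b. It took its name with a marker score of 0.511 where 0.5 was needed, and the adult one (58 cells) scored 0.883. At a clustering resolution of 0.5, the irradiated cluster of 97 cells had its highest score for the crypt base columnar stem list (0.533). Only 2 markers of that list passed where 3 were needed, so the enterocyte name was kept. In Paneth-like cells, 2 of 8 measured genes were at least 2-fold lower, beside 20.9% of genes: Psmb8 stood at 9.78 against 46.2 CPM and Psmb9 at 3.49 against 28.1. The 92 irradiated Paneth-like cells had a median of 99299 UMIs. The adult class joined 136 cells of 1972 UMIs with 77 cells of 28750 UMIs, and in the deeper of these clusters Psmb8 stood at 31.7 CPM and Psmb9 at 19.5. Depth and class were not separated in these comparisons.

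**Figure D5:**
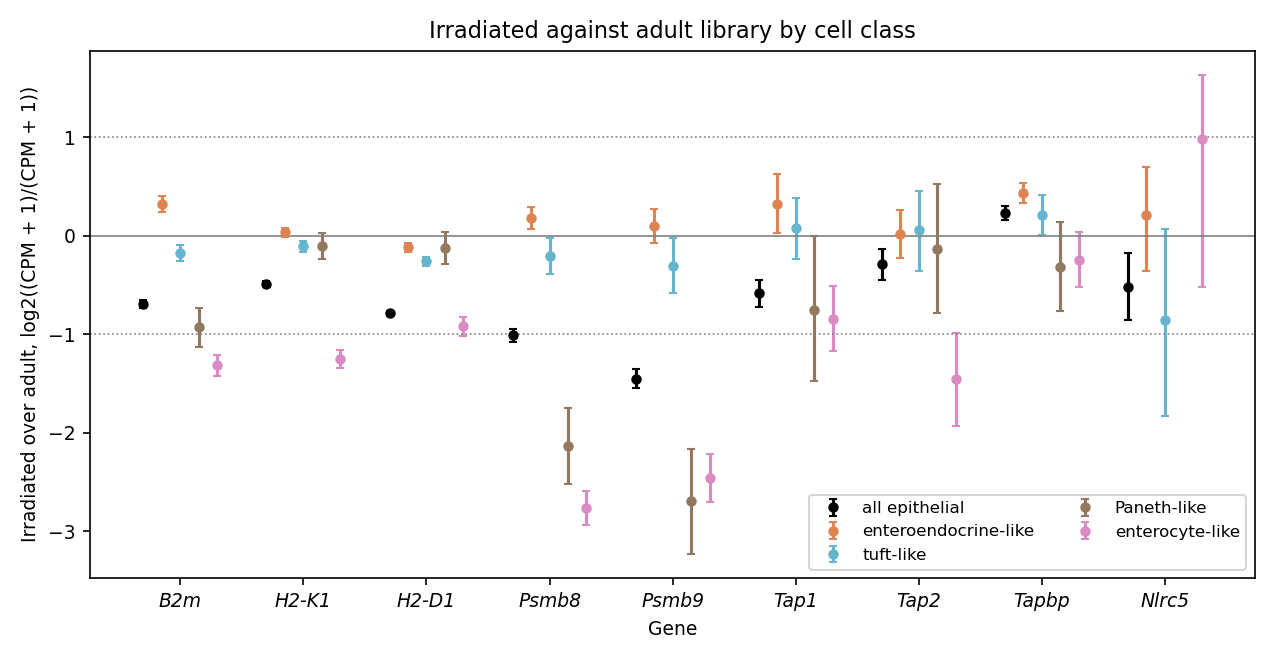
Log2 ratio of each gene, irradiated over adult library, in all epithelial cells and in 4 classes, for genes with at least 10 UMIs in either. Bars are 95% intervals for counting error and dotted lines mark 2-fold. Psmb8 and Psmb9 lie below -2 in Paneth-like and enterocyte-like cells and between -0.30 and 0.18 in enteroendocrine-like and tuft-like cells.

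Of 8 proteasome partners, 8 loading and trimming genes, 16 regulators and 9 receptor and kinase genes, none was 2-fold higher or lower in all epithelial cells. Of all measured genes, 2.59% were higher and 4.78% lower. Of 15 measured heavy chain and class I-like genes, 5 were at least 2-fold lower, beside the 4.78%, and none higher. The 5 were H2-Q1, H2-Q7, H2-Q10, H2-T3 (26.1 and 2.89 CPM) and Fcgrt (15.7 and 2.53 CPM), while H2-T23 stood at 98.3 and 144 CPM. Of 17 interferon-induced genes, Cxcl10 was 2-fold higher (log2 ratio 1.30, 1.24 and 4.52 CPM) and Isg15 was 2-fold lower (90.2 and 33.3 CPM). In the adult, Isg15 stood at 3547 CPM in the tuft-like cluster of 36 cells and at 384 in the other tuft-like cells. Tuft-like cells held 15.5% of adult and 4.01% of irradiated UMIs, and the ratio of Isg15 without them was not computed.

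The reporter transcript was used to split cells of the same library. At E12.5, 1351 of 4050 cells held an eGFP UMI, and B2m stood at 37.5 CPM in them and 40.6 in the rest, H2-D1 at 34.4 and 41.0. In irradiated enteroendocrine-like cells, 276 with an eGFP UMI and 1614 without had 191 and 192 CPM of B2m, 522 and 518 of H2-D1, and 91.8 and 92.2 of Psmb8. Cells with an eGFP UMI were deeper, with a median of 13690 UMIs against 9056 in that class.

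Genes whose level most resembled that of a member over the 20 combinations were sought among 10318 genes. For H2-D1 the closest was H2-K1 (Pearson 0.974), followed by Marveld3 (0.962) and Tmem8 (0.955). For Psmb8 they were Ifi47 (0.953), an interferon-induced GTPase, then Psmb9 (0.938) and Unc93b1 (0.924). For Psmb9 they were Psmb8, Cisd3 (0.917) and its neighbour Tap1 (0.889), and for Tap1 Chdh (0.947), Ifi47 (0.936) and Dgka (0.935). For Tap2 they were Parp14 (0.953), Ifit1bl1 (0.940) and Tlr3 (0.934), for Tapbp Parp10 (0.964), Atp9a (0.950) and Abcc3 (0.950), and for B2m Lima1 (0.939), Irgm1 (0.897) and Camk2d (0.891). H2-K1 was nearest to H2-D1, Tmem8 (0.950) and Krt8 (0.927). Nlrc5 stayed below the added 10 CPM in all but 1 combination, so the likeness of Tslp (0.965), 2010005H15Rik (0.955) and Grin2b (0.953) to it rests on tuft-like cells.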

How the data were processed

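RNA was measured in single cells of 4 libraries. Per the submitters' processing notes, reads were processed with Cell Ranger 3.1.0 on mm10. The authors deposited raw UMI counts per gene and barcode, with a minimum of 500 UMIs per barcode and no normalization. Further upstream settings are not given in the sources used here. Members, gene lists and markers were chosen with earlier results of these data known.

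Cells needed 500 genes and no more than 20% mitochondrial UMIs, and those with the highest scrublet scores (0.8% per 1000 barcodes, 153 to 193 per library) were removed with scanpy 1.11.5. Each library was clustered by the Leiden method (2000 variable genes, 30 components, 20 neighbours, resolution 1; leidenalg 0.10.2). Clusters were named "-like" from marker lists (mean scaled score of at least 0.5, at least 3 markers at 50 CPM and in 10% of cells). They stayed unnamed where depth was below the library median divided by 3 and no own marker was among the top 10 genes. The same held where enteroendocrine and tuft markers came together, or another class led the top 10 genes. Clusters named only as epithelial also became unnamed with 2 or more markers of non-epithelial or pancreatic lists in the top 10. These thresholds were revised after clusters had been seen, and differences between classes may come from these rebuilt names. Counts were summed per library and class and given as CPM with exact Poisson 95% intervals. Shares have Clopper-Pearson intervals, and ratios have intervals from the exact binomial split. Where a count was 0, the level of 3 UMIs is stated. Intervals cover counting error only, and PCR and cell sampling are outside them.

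The genes named were all 9 members, the genes of 6 lists where a count is described, and for each member the 3 genes nearest in pattern (at least 200 UMIs in all, 20 CPM in 1 combination). The comparison steps were tested on counts simulated for each comparison, with 200 genes changed 4-fold: 78.5% to 99.5% of them passed the 2-fold rule, and 94.7% to 96.2% of true ratios lay inside their intervals. Alternatives are in the closing section. Gene positions came from GENCODE M21 on GRCm38, the same assembly as mm10. Computation used python 3.11.15, scipy 1.17.1 and edgeR 4.0.16.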

Additional observations from a re-analysis of the deposited data

Results flagged for a closer look

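B2m and Psmb8 were the members whose irradiated over adult log2 ratio had opposite signs in the 2 main classes, with counting intervals on either side of 0. B2m was 0.32 in enteroendocrine-like cells and -0.17 in tuft-like cells. Psmb8 was 0.18 in enteroendocrine-like cells and -0.2 in tuft-like cells. Each value is from 1 library per group, all 4 are below 2-fold, and the difference between the classes was not tested. With cells holding a leukocyte UMI left out, which removes the tuft-like cells with Ptprc, the tuft-like ratios were 0.07 for B2m and 0.01 for Psmb8.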

How the results depend on the processing

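No paired analysis was possible because each group has 1 library and the replicate numbers only name samples. The counts of members at least 2-fold higher stayed within 1.5 times their value for E17.5 over E12.5, adult over E17.5 and adult over E12.5 in all epithelial cells, under every alternative run, with 6 of 9 for adult over E17.5 when tuft-like cells were left out, a setting chosen after seeing the data. For irradiated over adult in all epithelial cells, the count 2-fold lower went from 2 to 1 with every deposited barcode, the stricter filter (1000 genes, 10% mitochondrial), doublets kept, TMM factors, the mean of single-cell CPM, a pseudocount of 10 CPM, or leukocyte-UMI cells left out. Psmb8 was the gene lost, except under the mean of single-cell CPM, where Psmb9 (-0.69) was lost too and Nlrc5 (-1.04) was past 2-fold. For adult over E17.5 within enteroendocrine-like cells, the count went from 5 to 3 with a pseudocount of 10 CPM. In tuft-like cells, irradiated over adult, the count 2-fold lower went from 0 to 1 with the stricter filter, TMM factors or the mean of single-cell CPM (Nlrc5 in each), and with the mixed cluster counted as tuft-like (H2-D1, -1.08), an alternative chosen after seeing the data. The causes were not tested. TMM factors shift every log2 ratio by 0.20 for E17.5 over E12.5, 0.11 for adult over E12.5 and -0.17 for tuft-like cells, irradiated over adult, and by less than 0.1 elsewhere. No member past 2-fold changed sign under any alternative. Nlrc5 rests on at most 70 UMIs in any library's epithelial cells, so counting error is wide for it. Of the thinned shares, those without thinning or at 1000 or 4000 UMIs lay outside the 2000-UMI interval in most cases, since a share depends on the depth it is taken at.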
